A study of Mus musculus with 12 samples.

Results

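Interferon stimulated genes are the genes that a cell switches on when it senses interferon. A list of 52 of them was examined in bone marrow derived macrophages (BMDMs), which are macrophages grown from mouse bone marrow in culture. The members were chosen by name, from the antiviral, regulatory and GTPase genes known to respond to interferon, and 51 of the 52 were matched among the 23438 genes measured. Gbp5 was not analysed here. Of the 51, 44 belong to the set known mainly from the type I response, and 7 are Gbp or Irg GTPases (Gbp2, Gbp3, Gbp7, Igtp, Irgm1, Iigp1 and Ifi47).

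Type I interferons bind a receptor made of Ifnar1 and Ifnar2, whose kinases Jak1 and Tyk2 activate Stat2. With Irf9 it takes part in the complex ISGF3, which binds a promoter element called the interferon stimulated response element (ISRE). Interferon gamma acts through Ifngr1 and Ifngr2, and its signal reaches promoters at the gamma activated site (GAS); the Gbp and Irg GTPases respond strongly to it in mice. Macrophages keep a low level of many of these genes in culture without infection.

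The study compared Baf60a KO with WT BMDMs from atherosclerotic C57 mice, by RNA sequencing of 5 KO and 7 WT libraries. All were labelled as primary cells at day 7 of BMDM differentiation, with no other agent named. Baf60a, also called Smarcd1, encodes a subunit of the SWI/SNF chromatin remodelling complex. How it was deleted, how atherosclerosis was brought about, and the age and sex of the mice are not stated in the labels. Whether each library stands for its own mouse is not stated either, so a p-value weighs a difference against the library-to-library spread, part of which can be technical. Levels are in TPM, a measure of transcript abundance that sets each gene's reads against its length and each library to a fixed total. In bulk RNA, fewer cells of a type and less RNA per cell cannot be told apart.

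Smarcd1 ranged from 5.99 to 7.58 TPM in the KO libraries and from 11.6 to 15.6 TPM in the WT libraries, without overlap. All libraries carried macrophage markers, but not at one level. The 10 macrophage markers summed to 10991 to 11827 TPM in KO, against 20344 to 23160 TPM in WT replicates 1, 5, 6 and 7, without overlap, and to 20918, 27073 and 8505 TPM in WT replicates 2, 3 and 4. Lyz2, which encodes lysozyme, was at 4932 to 5853 TPM in KO and 14635 to 16912 TPM in WT replicates 1, 5, 6 and 7. It made up most of the sum in these 4 WT libraries but not in any KO library. Lyz2 alone among the 10 macrophage markers was lower in every KO library than in these 4 WT libraries, and Cd14 alone was higher. Csf1r, the receptor for the macrophage growth factor, overlapped, at 541 to 699.9 TPM in KO and 598 to 910 TPM in those 4 WT libraries. The part of the lower Lyz2 of KO, and so of its lower macrophage marker sum, in the results was not tested. WT replicates 2, 3 and 4 stood apart. Csf1r was at 170 to 275 TPM in them. The scavenger receptor Marco was at 1186 to 2043 TPM in them and below 3 TPM in every other library. Not all macrophage markers differed so: Adgre1 was at 450, 586 and 371 TPM in these 3 libraries, against 448 to 653 TPM elsewhere. The 10 fibroblast and smooth muscle markers summed to 3909 to 9804 TPM in WT replicates 2, 3 and 4, to 191 to 606 TPM in KO and to 113 to 426 TPM in the other 4 WT libraries. The 10 neutrophil markers summed to 6268 and 4382 TPM in KO replicates 1 and 4, and to 1013 to 2112 TPM in the other 3 KO libraries. They summed to 1202 to 1557 TPM in WT replicates 1, 5, 6 and 7, and to 151 to 174 TPM in WT replicates 2, 3 and 4. Of 8 plasmacytoid dendritic cell markers, 6 lay below 1 TPM in every library, as did 8 of 10 T and NK cell markers, 3 of 5 B cell markers and 4 of 6 conventional dendritic cell markers. The comparison of KO with WT was made in 3 sets. These were all 12 libraries, 9 libraries without WT replicates 2, 3 and 4, left out for their markers, and 8 libraries without WT replicate 6 as well, left out for its levels of the members themselves.

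The ISRE was read as the letters GAAA, any 2 bases and GAAA again, on either strand. RefSeq promoters of build GRCm38.p6, from 250 bases before to 50 after the transcription start, were matched to 39 of the 51 members, and 23 of the 39 (59.0%) held at least 1 such match. Over all 27025 genes with a promoter in that table the share was 3.99%. A match describes letters only and is not evidence that a factor binds there. The sequences that follow show 30 bases around a match for some of the members that hold one. Some of those shown, Bst2 and Rsad2 among them, passed no test below. Other members described below held no match, among them Irf7, Oasl2, Trim25, Samd9l and Ifit2. The bases of every match are in capitals (on the other strand the element reads TTTC, any 2 bases and TTTC), read 5′ to 3′ on the gene's strand. A match can run past the end of the stretch, and overlapping matches share letters.
Ifit1 (chr19:34640775-34640804, plus strand): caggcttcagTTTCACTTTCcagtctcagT
Ifit3 (chr19:34583363-34583392, plus strand): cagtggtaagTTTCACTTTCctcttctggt
Ifit3b (chr19:34607759-34607788, plus strand): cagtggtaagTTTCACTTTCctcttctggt
Oas3 (chr5:120777715-120777744, minus strand): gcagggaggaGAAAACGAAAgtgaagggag
Rsad2 (chr12:26456553-26456582, minus strand): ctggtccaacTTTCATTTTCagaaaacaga
Bst2 (chr8:71537583-71537612, minus strand): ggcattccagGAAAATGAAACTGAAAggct
Ifi203 (chr1:173942508-173942537, minus strand): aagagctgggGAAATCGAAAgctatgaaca
Gbp2 (chr3:142620594-142620623, plus strand): actcttttagTTTCACTTTCactgtcttaa
Gbp3 (chr3:142559989-142560018, plus strand): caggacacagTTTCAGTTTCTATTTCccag
Gbp7 (chr3:142530273-142530302, plus strand): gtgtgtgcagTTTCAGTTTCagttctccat
Igtp (chr11:58199512-58199541, plus strand): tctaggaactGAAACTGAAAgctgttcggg
Irgm1 (chr11:48871431-48871460, minus strand): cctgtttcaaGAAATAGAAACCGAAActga
The Ifit3 and Ifit3b stretches were the same letter for letter. Of the members with a promoter, 5 of 6 GTPase members and 18 of 33 type I members had a match.

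For a member with matches in a row, the 250 bases before the start of Isg15 are shown, a gene whose protein is joined to other proteins as a ubiquitin-like tag. Those of Gbp2, a guanylate binding protein, are set beside them because its levels moved unlike those of Isg15 among the WT libraries.
Isg15 (chr4:156200819-156201068, minus strand): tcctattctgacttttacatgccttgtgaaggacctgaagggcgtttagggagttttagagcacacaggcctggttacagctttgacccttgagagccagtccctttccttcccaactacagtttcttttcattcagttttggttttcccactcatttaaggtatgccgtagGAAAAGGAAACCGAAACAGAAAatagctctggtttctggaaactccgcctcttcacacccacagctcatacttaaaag
Gbp2 (chr3:142620413-142620662, plus strand): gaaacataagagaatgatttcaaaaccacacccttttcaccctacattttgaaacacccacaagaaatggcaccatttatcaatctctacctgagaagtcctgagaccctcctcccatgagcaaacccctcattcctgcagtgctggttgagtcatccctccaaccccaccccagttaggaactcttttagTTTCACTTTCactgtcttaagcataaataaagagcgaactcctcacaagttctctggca
Isg15 held 3 overlapping matches, the first of which began 78 bases before the start, and Gbp2 held 1 match, 59 bases before the start. The GAS, read as TTC, any 3 bases and GAA, which is its own reverse complement, occurred in 9 of the 39 members (23.1%) and in 9.55% of all genes in the table. It was found in 2 of the 6 GTPase promoters and in 7 of the 33 type I promoters. A GAS and an ISRE match can overlap in a promoter.

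Most members lay at a middle level in KO, at a low and even level in WT replicates 1, 5 and 7, and at their highest level in WT replicate 6. The 51 members summed to 3604, 2403, 2461, 3235 and 2752 TPM in KO replicates 1 to 5. They summed to 2242, 2235 and 2259 TPM in WT replicates 1, 5 and 7, to 4820 TPM in WT replicate 6, and to 2169, 2237 and 1356 TPM in WT replicates 2, 3 and 4. KO libraries thus lay above 6 of the 7 WT libraries and below the seventh. The sum is led by a few abundant genes, chiefly Bst2, Ly6e and Ifitm3.

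**Figure D1:**
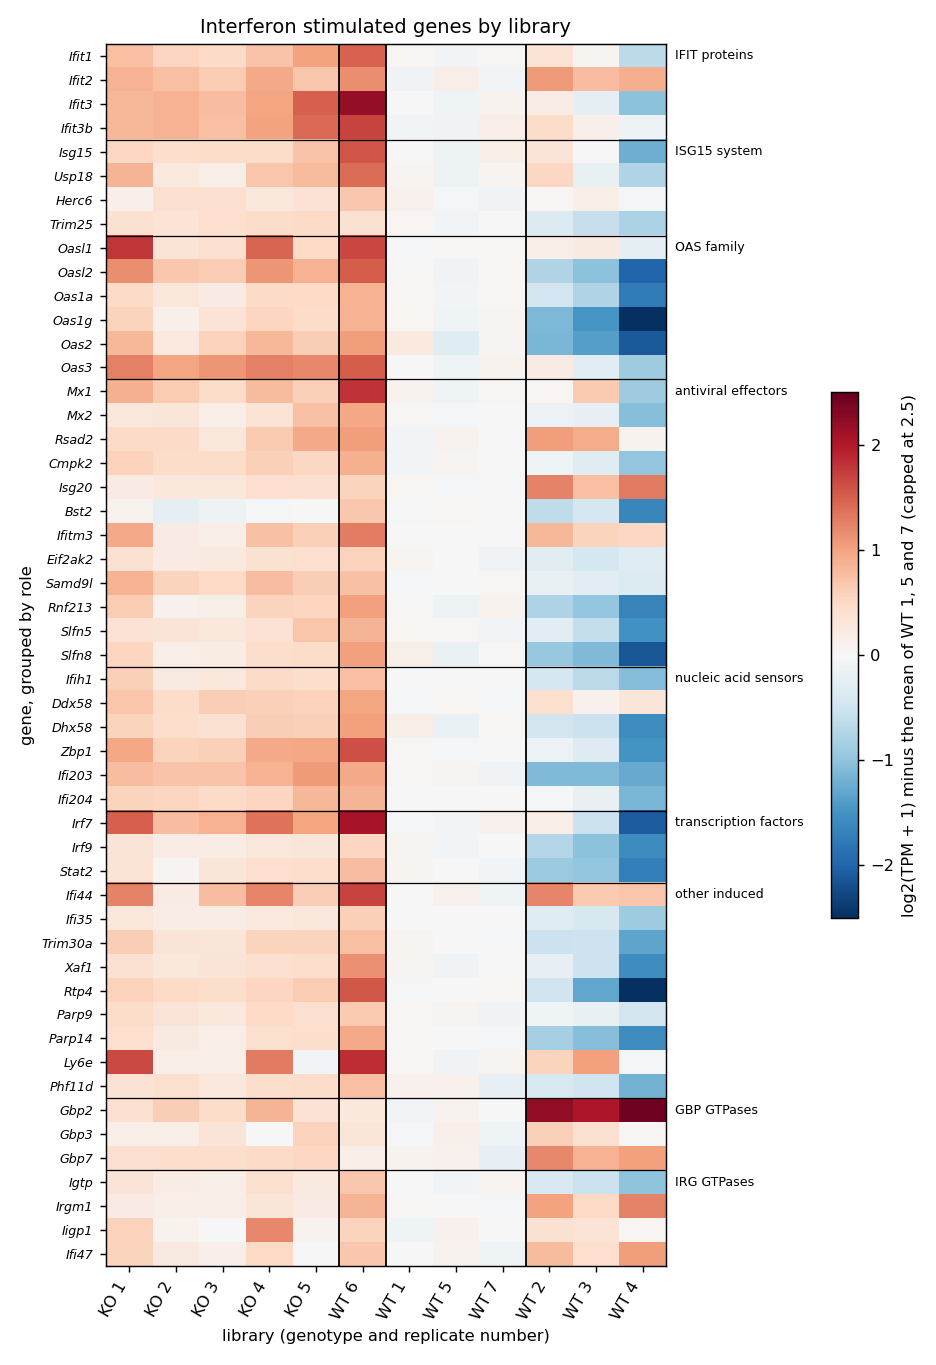
Each row is 1 of the 51 measured members, grouped by role, and each column is a library; colour gives log2(TPM + 1) minus the mean of WT replicates 1, 5 and 7, capped at 2.5 in either direction. The KO columns are above that mean for nearly all genes, WT replicate 6 is higher still, and WT replicates 2, 3 and 4 are below it for most type I genes and above it for some members, Gbp2, Gbp7 and Irgm1 among them.

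All 5 KO libraries were above WT replicates 1, 5 and 7 in 45 of the 51 members, against 12.2% of all genes tested. The members whose ranges did overlap these 3 WT libraries were Bst2, Ly6e, Stat2, Gbp3, Iigp1 and Ifi47. No member was below these 3 WT libraries in every KO library, against 3.47% of all genes. No member was above all 7 WT libraries in every KO library, where 2.92% of all genes were, and none was below all 7, where 0.637% of all genes were.

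WT replicate 6 was above WT replicates 1, 5 and 7 in all 51 members, where 30.3% of all genes tested were. It was above every KO library in 43 of 51 (15.2% of all genes) and above the other 6 WT libraries in 44 of 51 (19.5% of all genes). The order of WT replicates 1, 5 and 7 lowest, then every KO library, then WT replicate 6 held for 39 of the 51 members, 37 of them type I, and for 1.43% of all genes tested. The ratio of WT replicate 6 to the mean of WT replicates 1, 5 and 7 had a median of 2.06 over the 50 tested members, from 1.24 for Gbp7 to 5.72 for Ifi44, and of 0.993 over all genes tested. The ratio of the KO mean to the same WT mean had a median of 1.46 over the members, from 0.957 for Bst2 to 3.08 for Ifit3b, and of 1.03 over all genes. Both largest ratios rest on low levels in WT replicates 1, 5 and 7, at 0.75 to 1.01 TPM for Ifi44 and 0.78 to 1.12 TPM for Ifit3b. Among the markers, WT replicate 6 had 113 TPM of fibroblast and smooth muscle markers in sum, against 393 to 426 TPM in WT replicates 1, 5 and 7, and its neutrophil sum of 1202 TPM was close to theirs (1244 to 1557 TPM). The part of these markers in the levels of WT replicate 6 was not tested.

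With all 12 libraries, no member passed the test for a difference between KO and WT. The test was limma on log2(TPM + 1), fitted over 11152 genes with Benjamini-Hochberg adjustment and a threshold of 0.05, and 50 members entered it. It called 12 genes higher in KO (0.108% of those tested) and 2 lower (0.0179%), among them 0 members in either direction. At an unadjusted p under 0.05 there were 17 members and 1954 genes in all. The fold change was positive for 45 of 50 members, with a median of 0.58 on the log2 scale, against 0.04 over all genes; the 5 negative ones were those of Gbp2, Gbp7, Irgm1, Ifi47 and Isg20. The lowest adjusted p of a member was 0.149, for Samd9l. The mean log2(TPM + 1) over the type I members had an SD of 0.143 in KO and of 0.619 in WT. Without WT replicate 6, 36 genes were called, of which 3 were members: Oas3, Samd9l and Ifit3b, all higher in KO.

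Leaving out WT replicates 2, 3 and 4 also gave no called member. This 9-library set called 180 genes higher in KO (1.61%) and 80 lower (0.717%) by limma, and among the members 6 had an unadjusted p under 0.05, as did 2111 genes in all. The fold change was positive for 48 of 50 members, all but Bst2 and Irgm1, but its median fell to 0.21, against 0.05 over all genes; WT replicate 6 is 1 of 4 WT libraries in this set. The lowest adjusted p-values were 0.0539 for Gbp7, 0.0703 for Gbp2 and 0.0733 for Trim25.

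Leaving out WT replicate 6 as well gave 31 called members of 50, all higher in KO and none lower. The 8-library set called 352 genes higher (3.16%) and 110 lower (0.986%) by limma, and the members' share of higher calls was 62.0%. WT replicate 6 was left out because of its values in these very genes, which narrows the WT spread, so the p-values of this set are not an independent test of the members. The fold change was positive for 49 of 50 members, with a median of 0.49 on the log2 scale, against 0.04 over all genes. Without WT replicate 1, 5 or 7 the count of called members fell to 10, 16 and 10, and without KO replicate 4 to 19. Genes called in all fell from 462 to 78, 192 and 81, and to 198, in the same refits. Of the 31 called members, 8 were called in each of 13 alternative settings: Ddx58, Ifi203, Ifi204, Ifit2, Oas3, Rtp4, Samd9l and Trim25.

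**Figure D2:**
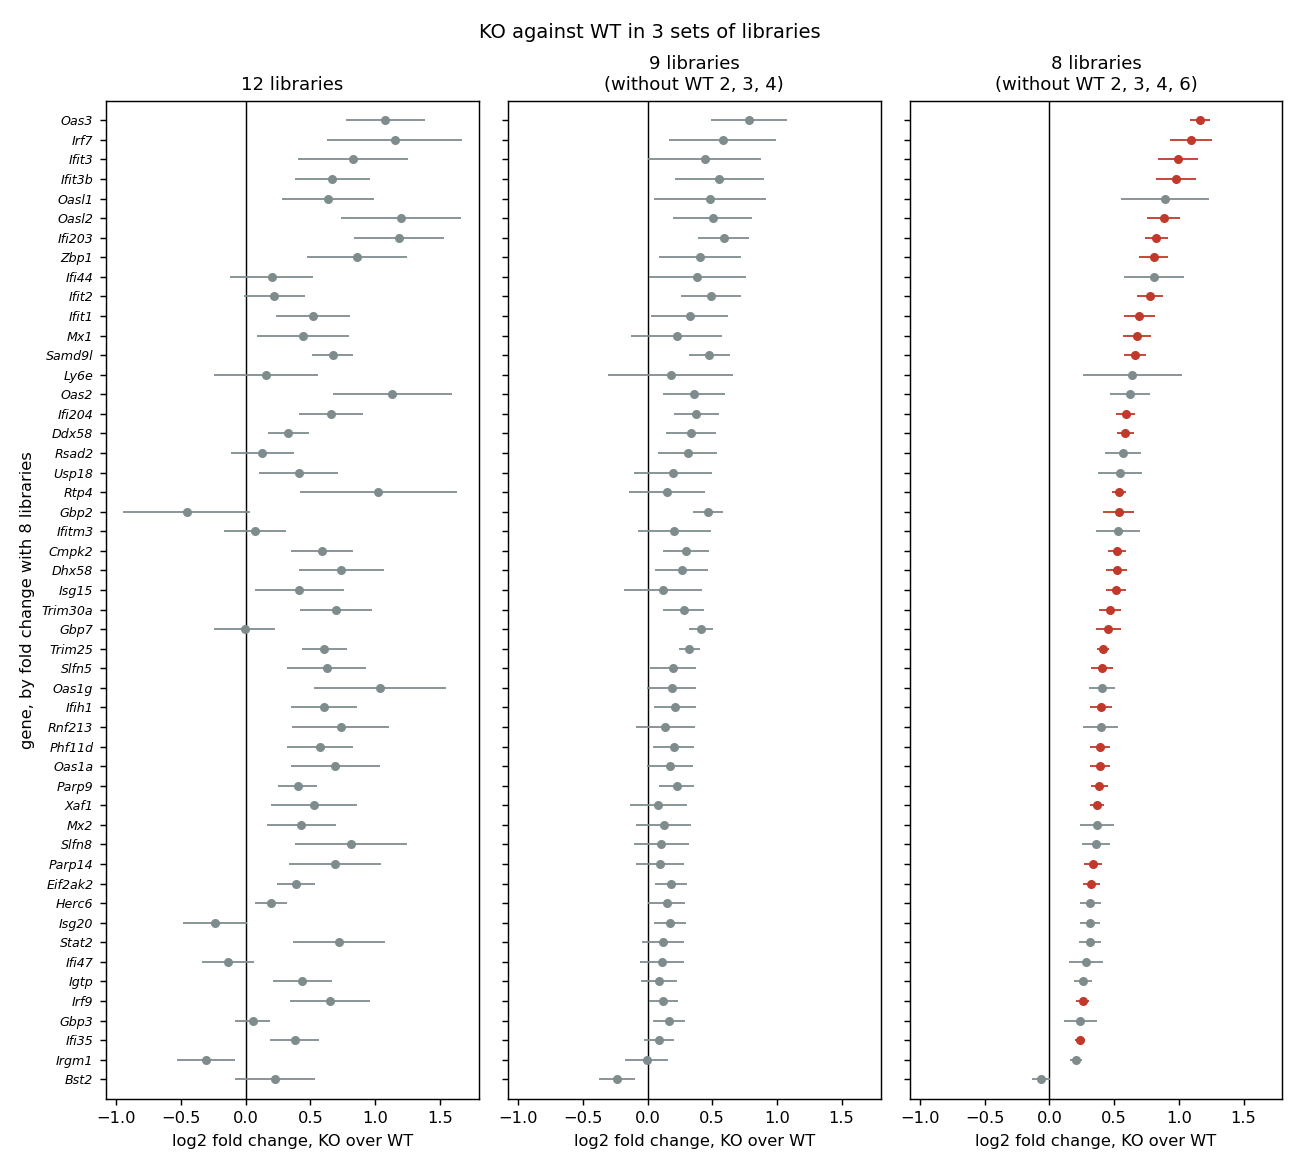
Points are the log2 fold change of KO over WT on the log2(TPM + 1) scale for 50 members, bars are its standard error, and the panels are the 3 sets of libraries; red marks an adjusted p under 0.05 (limma). Red points occur only in the panel of 8 libraries, with 31 of 50 members. Bars are widest with 12 libraries for most members, but with 9 for some, Ly6e, Oasl1, Ifi44 and Ifit3b among them.

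Among the transcription factors, Irf7 differed most and Irf9 and Stat2 differed less. Irf7, which is induced by interferon and raises interferon production in turn, had 64.9, 39.0, 41.5, 58.4 and 45.1 TPM in KO replicates 1 to 5. It had 21.8, 21.1 and 24.1 TPM in WT replicates 1, 5 and 7, 96.7 TPM in WT replicate 6, and 25.2, 15.1 and 4.51 TPM in WT replicates 2, 3 and 4. Every KO library was above 6 of the WT libraries and below WT replicate 6, so the groups overlap. The log2 fold change of Irf7 was 1.15 ± 0.52 (SE) with 12 libraries (adjusted p = 0.283, limma) and 1.10 ± 0.16 with 8 (adjusted p = 0.0116).

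Irf9, the DNA-binding subunit of ISGF3, ranged from 33.4 to 37.2 TPM in KO, was 30.7, 28.1 and 29.5 TPM in WT replicates 1, 5 and 7 and 43.4 TPM in WT replicate 6. It was 17.3, 13.9 and 9.30 TPM in WT replicates 2, 3 and 4, the lowest of all libraries. With 8 libraries it rose by 0.26 ± 0.05 on the log2 scale (adjusted p = 0.0326, limma), a call kept in 5 of 13 alternatives. Stat2, the other ISGF3 subunit specific to type I signals, ranged from 29.4 to 38.3 TPM in KO, against 26.9 to 29.7 TPM in WT replicates 1, 5 and 7, which overlap. Its fold change with 8 libraries was 0.31 ± 0.08, with an adjusted p of 0.0793 (limma).

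The 4 IFIT genes encode proteins that bind foreign RNA and block its translation, and they lie side by side on chromosome 19 (GRCm38, chr19:34550694-34650009). Ifit3 had 12.4, 12.7, 11.7, 13.8 and 20.1 TPM in KO replicates 1 to 5. It had 6.50, 5.98 and 6.99 TPM in WT replicates 1, 5 and 7, 33.4 TPM in WT replicate 6, and 7.47, 5.40 and 2.66 TPM in WT replicates 2, 3 and 4. KO replicate 5 was the highest KO library and WT replicate 6 the highest of all. The log2 fold change of Ifit3 was 0.83 ± 0.42 with 12 libraries (adjusted p = 0.311, limma) and 0.99 ± 0.15 with 8 (adjusted p = 0.0134).

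Ifit1 ranged from 3.70 to 5.70 TPM in KO, against 2.19 to 2.46 TPM in WT replicates 1, 5 and 7 and 8.36 TPM in WT replicate 6. Ifit2 ranged from 4.82 to 6.26 TPM in KO, against 2.52 to 3.21 TPM in WT replicates 1, 5 and 7. Unlike Ifit1 and Ifit3, Ifit2 was high in WT replicates 2, 3 and 4 (6.85, 5.39 and 6.06 TPM), so its KO values overlap with theirs. All 4 IFIT genes were called higher with 8 libraries, where 3.16% of all genes were and WT replicate 6 was left out for its levels of the members. Ifit3b was at 0.98 ± 0.16, Ifit2 at 0.78 ± 0.10 and Ifit1 at 0.69 ± 0.12 on the log2 scale (adjusted p = 0.0138, 0.0062 and 0.0175, limma). Of the 51-base stretches of Ifit3, 50.8% also occur in Ifit3b, and 44.2% of those of Ifit3b occur in Ifit3, so reads of 51 bases cannot always be told apart and the split of levels between them is uncertain.

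Isg15, the ubiquitin-like tag, had 55.4, 52.2, 53.1, 53.3 and 63.3 TPM in KO replicates 1 to 5. It had 38.2, 34.9 and 42.6 TPM in WT replicates 1, 5 and 7, 117 TPM in WT replicate 6, and 48.4, 38.5 and 16.0 TPM in WT replicates 2, 3 and 4. The KO libraries were even and above 6 of the 7 WT libraries. In log2 terms the difference was 0.42 ± 0.35 with 12 libraries (adjusted p = 0.448, limma), 0.12 ± 0.30 with 9 (adjusted p = 0.871) and 0.51 ± 0.08 with 8 (adjusted p = 0.0134).

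Of the other ISG15 genes, Trim25, an E3 ligase for Isg15 that also activates the RNA sensor Ddx58, ranged from 57.7 to 63.8 TPM in KO, against 43.5 to 46.8 TPM in WT replicates 1, 5 and 7. At 59.3 TPM, WT replicate 6 lay within the KO range, and WT replicates 2, 3 and 4 were lower at 35.5, 30.1 and 25.7 TPM. Trim25 rose by 0.42 ± 0.04 on the log2 scale with 8 libraries (adjusted p = 0.0036, limma). Usp18, which removes Isg15 from proteins and dampens the receptor, ranged from 7.58 to 12.9 TPM in KO and from 3.56 to 19.3 TPM in WT, and was not called (0.55 ± 0.17 with 8 libraries, adjusted p = 0.120, limma). Herc6, the mouse ligase that joins Isg15 to its targets, ranged from 6.58 to 8.17 TPM in KO and from 5.55 to 10.1 TPM in WT, and was not called either.

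**Figure D3:**
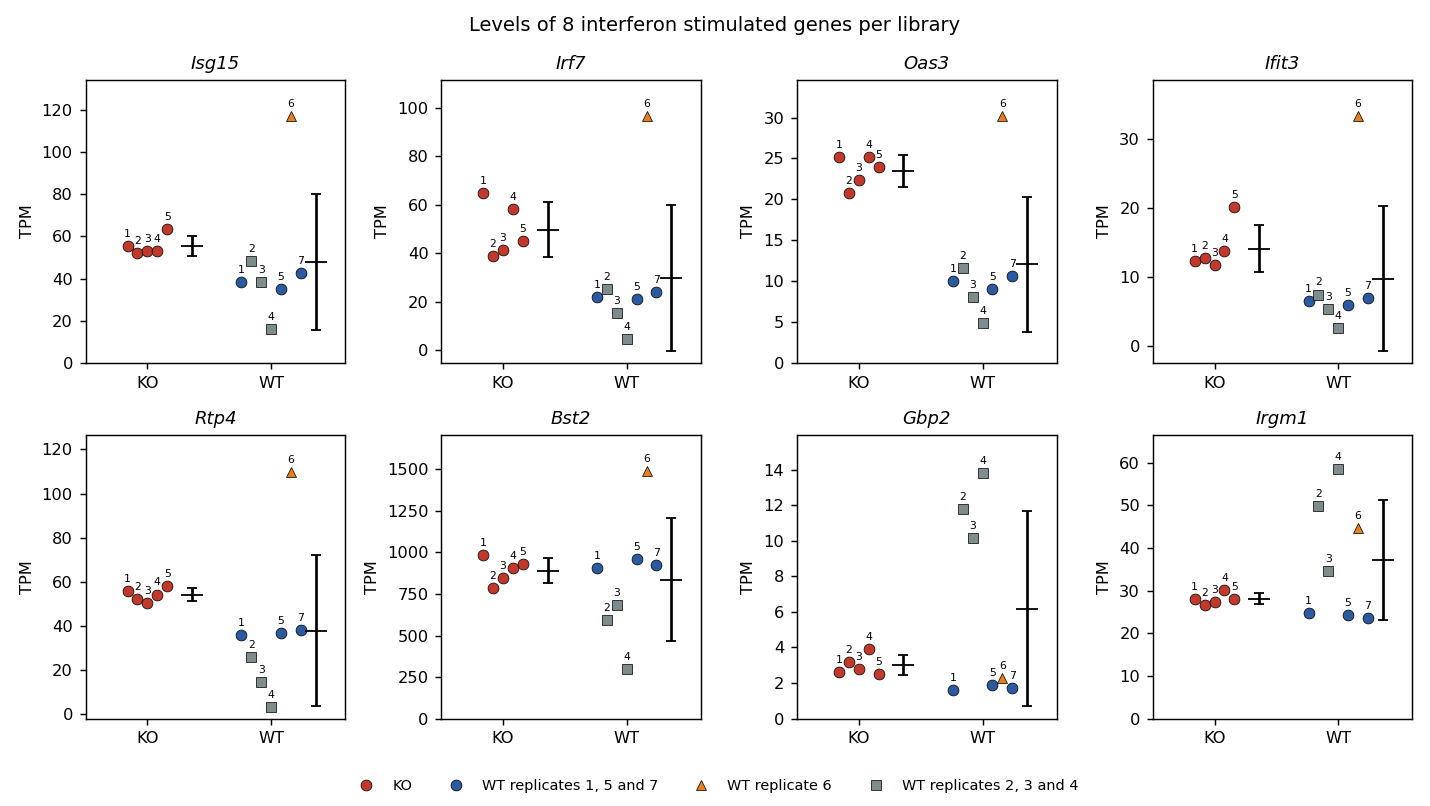
TPM per library for 8 members, with KO left of WT in each panel; numbers are replicate numbers, and the bar beside each group is the mean and SD over its libraries. In Isg15, Irf7, Oas3, Ifit3 and Rtp4 the 5 KO libraries lie between WT replicate 6 and the other WT libraries; in Bst2 they overlap WT, and in Gbp2 and Irgm1 WT replicates 2, 3 and 4 are the highest or among the highest.

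The OAS genes make the second messenger that activates the RNA-cutting enzyme RNase L, and Oas3 had the largest fold change of any member with 9 and with 8 libraries. Oas3 had 25.1, 20.7, 22.4, 25.2 and 23.9 TPM in KO replicates 1 to 5. It had 10.04, 9.10 and 10.7 TPM in WT replicates 1, 5 and 7, 30.2 TPM in WT replicate 6, and 11.6, 8.13 and 4.91 TPM in WT replicates 2, 3 and 4. Every KO library was above every WT library but replicate 6. The log2 fold change was 1.08 ± 0.31 with 12 libraries (adjusted p = 0.208, limma), 0.78 ± 0.29 with 9 (adjusted p = 0.188) and 1.16 ± 0.08 with 8 (adjusted p = 0.00049).

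With all 12 libraries the largest fold change was that of Oasl2, an OAS-like protein, at 1.202 ± 0.46 on the log2 scale (adjusted p = 0.250, limma). Oasl2 ranged from 40.0 to 58.2 TPM in KO. It was 26.2, 24.0 and 26.5 TPM in WT replicates 1, 5 and 7, 75.1 TPM in WT replicate 6, and 14.8, 12.1 and 5.71 TPM in WT replicates 2, 3 and 4. Oas1a ranged from 62.5 to 77.0 TPM in KO, against 51.4 to 55.9 TPM in WT replicates 1, 5 and 7. It was called with 8 libraries at 0.39 ± 0.08 (adjusted p = 0.0279, limma), a call kept in 5 of 13 alternatives. Of the 51-base stretches of Oas1a, 57.0% also occur in Oas1g, so the split between these neighbours is uncertain. Oas2, Oas1g and Oasl1 were not called in any set.

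Among the antiviral effectors, 5 of 12 were called higher with 8 libraries, the set without WT replicate 6, where 3.16% of all genes were. These 5 were Mx1, Samd9l, Cmpk2, Slfn5 and Eif2ak2. Samd9l, which restricts virus growth, ranged from 16.6 to 21.7 TPM in KO, against 11.3, 11.5 and 11.7 TPM in WT replicates 1, 5 and 7, 19.8 TPM in WT replicate 6, and 8.89 to 10.02 TPM in WT replicates 2, 3 and 4. It rose by 0.66 ± 0.09 with 8 libraries (adjusted p = 0.0063, limma). Mx1, of the dynamin-like GTPase family, ranged from 3.30 to 4.86 TPM in KO, against 1.91 to 2.34 TPM in WT replicates 1, 5 and 7 and 10.04 TPM in WT replicate 6, and rose by 0.68 ± 0.11 (adjusted p = 0.0156).

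Cmpk2, a mitochondrial nucleotide kinase, ranged from 4.29 to 4.83 TPM in KO, against 2.67 to 3.02 TPM in WT replicates 1, 5 and 7, and rose by 0.52 ± 0.07 (adjusted p = 0.0077, limma). Its neighbour Rsad2, also called viperin, which makes a chain-ending nucleotide, ranged from 3.37 to 5.88 TPM in KO, against 2.42 to 2.77 TPM in WT replicates 1, 5 and 7. WT replicates 2 and 3 reached 6.38 and 5.77 TPM of Rsad2, near the 6.33 TPM of WT replicate 6. Rsad2 was not called (0.57 ± 0.14 with 8 libraries, adjusted p = 0.0564, limma).

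Eif2ak2, the kinase PKR that stops translation on double-stranded RNA, and Slfn5, a Schlafen family member, were called at 0.32 ± 0.07 and 0.41 ± 0.09 with 8 libraries (adjusted p = 0.0334 and 0.0410, limma). Those calls held in 3 and 2 of 13 alternatives. Eif2ak2 ranged from 27.2 to 31.8 TPM in KO, against 22.02 to 24.9 TPM in WT replicates 1, 5 and 7 and 35.5 TPM in WT replicate 6. Ifitm3, a membrane protein that blocks virus entry, ranged from 271 to 470.0 TPM in KO and from 241 to 592 TPM in WT and was not called, and Rnf213, a large ubiquitin ligase, was not called either (28.8 to 42.2 TPM in KO, 7.79 to 56.0 TPM in WT).

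Bst2, also called tetherin, which holds budding viruses at the cell surface, was the only member with a negative fold change with 8 libraries. It had 982, 789, 846, 907 and 930.2 TPM in KO replicates 1 to 5. It had 904, 962 and 926 TPM in WT replicates 1, 5 and 7, 1490.4 TPM in WT replicate 6, and 595, 682 and 299 TPM in WT replicates 2, 3 and 4. The KO values overlapped those of WT replicates 1, 5 and 7. The log2 fold change of Bst2 was 0.23 ± 0.31 with 12 libraries (adjusted p = 0.634, limma), -0.24 ± 0.14 with 9 (adjusted p = 0.399) and -0.07 ± 0.07 with 8 (adjusted p = 0.649), so its sign turned when WT replicates 2, 3 and 4 were left out.

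All 6 nucleic acid sensors were called higher with 8 libraries, where 3.16% of all genes were. Their log2 fold changes in that set, which leaves out WT replicate 6 for its levels of the members, were 0.40 to 0.82. Ddx58 (RIG-I), which senses viral RNA ends, had 13.5, 11.2, 12.6, 12.4 and 12.3 TPM in KO replicates 1 to 5. It had 7.74, 8.20 and 7.77 TPM in WT replicates 1, 5 and 7, 16.7 TPM in WT replicate 6, and 10.8, 8.57 and 9.97 TPM in WT replicates 2, 3 and 4. KO libraries were above all WT libraries but replicate 6. Ddx58 rose by 0.59 ± 0.06 with 8 libraries (adjusted p = 0.0036, limma).

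Ifih1 (MDA5), the sensor of long double-stranded RNA, ranged from 12.9 to 17.1 TPM in KO, against 10.8 to 11.01 TPM in WT replicates 1, 5 and 7. It rose by 0.40 ± 0.09 with 8 libraries (adjusted p = 0.0418, limma), a call kept in 4 of 13 alternatives. Dhx58 (LGP2), a regulator of Ddx58 and Ifih1, rose by 0.52 ± 0.08 (adjusted p = 0.0132). Zbp1, which senses left-handed nucleic acid and can start cell death, ranged from 11.9 to 16.0 TPM in KO, against 7.54 to 7.95 TPM in WT replicates 1, 5 and 7 and 25.6 TPM in WT replicate 6, and rose by 0.81 ± 0.11 (adjusted p = 0.0090).

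Ifi203 and Ifi204 belong to the mouse family of DNA-binding proteins that includes the cytosolic DNA sensors, and they lie together on chromosome 1 (GRCm38, chr1:173747293-173942672). Ifi203 ranged from 13.2 to 17.1 TPM in KO. It was 7.83, 8.07 and 7.19 TPM in WT replicates 1, 5 and 7, 15.8 TPM in WT replicate 6, and 3.06, 3.04 and 2.63 TPM in WT replicates 2, 3 and 4. WT replicate 6 lay within the KO range, unlike for most members. Ifi203 rose by 0.82 ± 0.09 (adjusted p = 0.0036) and Ifi204 by 0.59 ± 0.07 (adjusted p = 0.0062) with 8 libraries (limma).

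In the remaining group of 9 induced genes, 7 were called higher with 8 libraries, the set without WT replicate 6, where 3.16% of all genes were. Rtp4, an inhibitor of viral replication first known as a receptor transporter, had 55.6, 52.1, 50.5, 54.2 and 58.2 TPM in KO replicates 1 to 5. It had 35.7, 36.9 and 38.2 TPM in WT replicates 1, 5 and 7, 110 TPM in WT replicate 6, and 26.0, 14.5 and 3.22 TPM in WT replicates 2, 3 and 4. The spread among WT libraries was far wider than among KO libraries. The fold change, again log2, was 1.02 ± 0.61 with 12 libraries (adjusted p = 0.336, limma) and 0.54 ± 0.05 with 8 (adjusted p = 0.0024).

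The other called genes of this group had smaller fold changes with 8 libraries: Trim30a 0.47 ± 0.08, Parp9 and Phf11d 0.39 ± 0.07 and 0.39 ± 0.08, Xaf1 0.37 ± 0.05, Parp14 0.33 ± 0.07 and Ifi35 0.23 ± 0.04 (adjusted p from 0.0116 to 0.0378, limma). The calls of Parp14 and Phf11d each held in 3 of 13 alternatives. Parp9 and Parp14 are ADP-ribosyltransferase family members that lie near each other on chromosome 16, and Xaf1 promotes cell death. Ly6e, a surface protein that hinders virus fusion, was uneven within KO, at 1006, 358, 360, 792 and 307 TPM in KO replicates 1 to 5. It was 327, 303 and 335 TPM in WT replicates 1, 5 and 7, 1155 TPM in WT replicate 6, and 472, 653 and 315 TPM in WT replicates 2, 3 and 4, and was not called in any set. KO replicates 1 and 4 were far above the other KO libraries, and without them its log2 fold change turned to -0.40 with 12 libraries and -0.37 with 9. Ly6e, Oasl1, Herc6, Isg20 and Ifi47 are described because of values already seen.

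The Gbp and Irg GTPases, which attack the vacuoles of intracellular microbes, differed as a list from the type I list in WT replicates 2, 3 and 4, the Gbp genes more than the Irg genes. The mean log2(TPM + 1) of the 44 type I members was 4.62, 4.33, 4.34, 4.60 and 4.57 in KO replicates 1 to 5. It was 3.97, 3.91 and 3.95 in WT replicates 1, 5 and 7, 5.05 in WT replicate 6, and 3.83, 3.62 and 2.96 in WT replicates 2, 3 and 4. The mean of the 6 tested GTPase members was 3.08, 3.03, 3.02, 3.16 and 3.06 in KO. It was 2.74, 2.80 and 2.67 in WT replicates 1, 5 and 7, 3.23 in WT replicate 6, and 3.64, 3.35 and 3.53 in WT replicates 2, 3 and 4. WT replicates 2, 3 and 4 were thus the lowest libraries for the type I list and the highest for the GTPase list, while KO lay above WT replicates 1, 5 and 7 in both. The 2 GTPase families were not alike. The mean of WT replicates 2, 3 and 4 lay above that of WT replicates 1, 5, 6 and 7 by 1.13 for the 3 Gbp genes but by 0.16 for the 3 tested Irg genes, for which WT replicate 6 was the highest library, at 4.65. Nor were the type I members alike: in 6 of the 44 (Ifit2, Rsad2, Isg20, Ifitm3, Ddx58 and Ifi44) WT replicates 2, 3 and 4 were all above WT replicates 1, 5 and 7, as they were in 4 of the 7 GTPase members (Gbp2, Gbp7, Irgm1 and Ifi47) and in 31.4% of all genes.

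The KO minus WT difference of these means was 0.59 for the type I list and -0.07 for the GTPase list over 12 libraries, and 0.55 and 0.33 against WT replicates 1, 5 and 7 alone. No test was made of a list mean, since the members were chosen with results known. With 8 libraries 29 of 44 type I members (65.9%) and 2 of 6 GTPase members (33.3%) were called higher, against 3.16% of all genes.

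**Figure D4:**
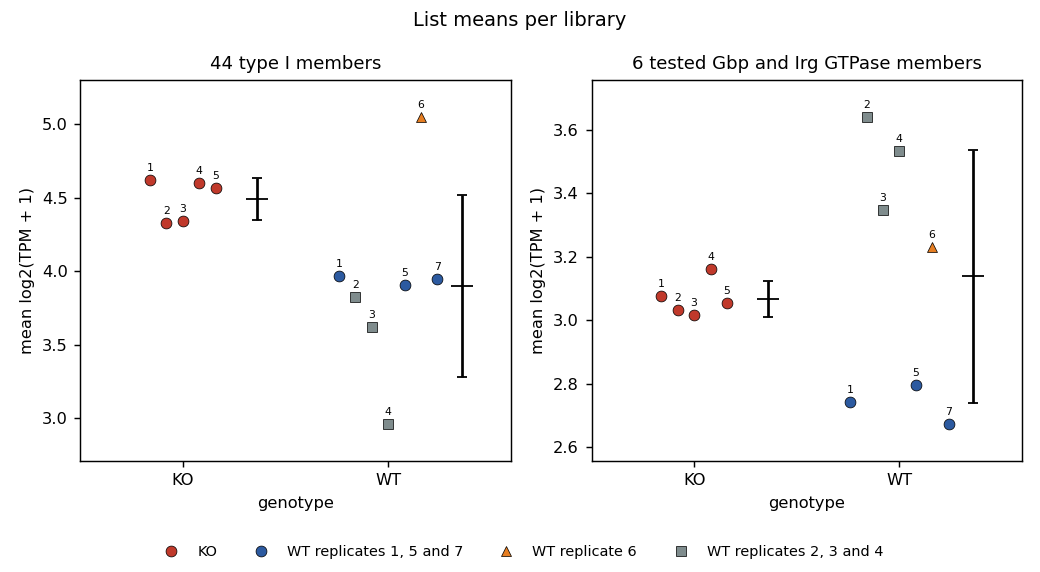
Mean log2(TPM + 1) per library over the 44 type I members (left) and the 6 tested Gbp and Irg GTPase members (right), with KO left of WT and the mean and SD of each group beside it; the axes do not start at 0. WT replicate 6 is highest on the left at 5.05 and WT replicates 2, 3 and 4 are highest on the right, at 3.35 to 3.64.

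Gbp2, a guanylate binding protein, had 2.62, 3.17, 2.78, 3.93 and 2.52 TPM in KO replicates 1 to 5. It had 1.61, 1.90 and 1.72 TPM in WT replicates 1, 5 and 7, 2.30 TPM in WT replicate 6, and 11.8, 10.1 and 13.8 TPM in WT replicates 2, 3 and 4. KO was above 4 of the WT libraries, replicate 6 included, and below the other 3. The log2 fold change of Gbp2 was -0.46 ± 0.49 with 12 libraries (adjusted p = 0.550, limma), 0.47 ± 0.12 with 9 (adjusted p = 0.0703) and 0.54 ± 0.12 with 8 (adjusted p = 0.0449).

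Gbp7, its neighbour on chromosome 3 (GRCm38, chr3:142530342-142638008 for the cluster), had 1.65, 1.70, 1.72, 1.81 and 1.87 TPM in KO, against 1.12, 1.17, 0.75 and 1.26 TPM in WT replicates 1, 5, 7 and 6. WT replicates 2, 3 and 4 had 3.59, 2.65 and 3.06 TPM. Gbp2 and Gbp7 were the only 2 members with every KO library above WT replicates 1, 5, 6 and 7, where 7.09% of all genes were, and no member was below these 4 in every KO library, where 2.08% were. Gbp7 was called with 8 libraries (0.46 ± 0.10, adjusted p = 0.0410, limma), a call kept in 3 of 13 alternatives, and Gbp2's was kept in 4 of 13.

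Irgm1, a regulator of the other Irg GTPases, had 28.1, 26.7, 27.2, 30.2 and 28.1 TPM in KO replicates 1 to 5. It had 24.8, 24.3 and 23.5 TPM in WT replicates 1, 5 and 7, 44.6 TPM in WT replicate 6, and 49.8, 34.6 and 58.6 TPM in WT replicates 2, 3 and 4. KO thus lay between the 3 lowest WT libraries and the other 4. Igtp (Irgm3) followed the type I pattern instead, at 11.2 to 13.5 TPM in KO, 9.59 to 10.6 TPM in WT replicates 1, 5 and 7, 16.7 TPM in WT replicate 6 and 4.54 to 7.44 TPM in WT replicates 2, 3 and 4. Irgm1 and Igtp had fold changes of 0.21 ± 0.05 and 0.26 ± 0.07 with 8 libraries (adjusted p = 0.0524 and 0.0786, limma). Iigp1, at 0.29 to 1.94 TPM in KO and 0.18 to 0.89 TPM in WT, was too low to enter the test, and Gbp3 and Ifi47 were not called in any set.

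WT replicates 2, 3 and 4 were below WT replicates 1, 5, 6 and 7 in 28 of the 51 members, 27 of them type I, where 28.3% of all genes were lower in the same way. They were above in 3 members, Isg20, Gbp2 and Gbp7, where 29.9% of all genes were higher. The 3 libraries stand apart from the other WT in much of the transcriptome, so these shares of all genes are the measure to read the members by. The ratio of their mean to that of WT replicates 1, 5 and 7 had a median of 0.670 over the type I members, from 0.263 for Oas2 to 2.78 for Ifi44, and of 1.87 over the 6 tested GTPases, up to 6.84 for Gbp2. Over all genes the median ratio was 1.01.

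WT replicate 4 was the lowest of the 12 libraries in 36 of the 51 members (70.6%), of which 35 were type I, where it was the lowest in 18.2% of all genes tested. It also had the most fibroblast and smooth muscle marker RNA, 9804 TPM in sum, against 5456 and 3909 TPM in WT replicates 2 and 3. It had 8505 TPM of macrophage markers in sum, against 20918 and 27073 TPM in WT replicates 2 and 3. The part of these cell markers in the levels of the members was not tested.

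Within KO, replicates 1 and 4 were above replicates 2, 3 and 5 in 21 of the 51 members (41.2%), where 21.1% of all genes were, and below in 2, where 18.7% were. The ratio of their means had a median of 1.09 over the 50 tested members, from 0.785 for Gbp3 to 2.75 for Oasl1, and of 1.01 over all genes. Oasl1, an OAS-like protein that restrains Irf7 translation, had 10.1 and 7.84 TPM in KO replicates 1 and 4, against 3.06, 3.22 and 3.51 TPM in replicates 2, 3 and 5. These are the 2 libraries with the highest neutrophil marker sums. Their fibroblast and smooth muscle marker sums, 191 and 274 TPM, were the lowest of KO, against 424 to 606 TPM in replicates 2, 3 and 5. WT replicate 6 had 113 TPM of these markers. The part of either marker list in the result was not tested. Without KO replicates 1 and 4, 25 members were called with 8 libraries, 23 of them among the 31, and 0 with 12 and with 9. Genes called in all then numbered 546 with 8 libraries, 3 with 12 and 263 with 9.

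The upstream genes of the pathway were read from a list of 48 genes, of which 46 were in the table and 37 entered the test. With 12 libraries 0 of the 37 were called, with 9 libraries 1 was called lower, and with 8 libraries 4 were called higher and 1 lower. Over all genes tested, 0.717% were called lower with 9 libraries. With 8 libraries 3.16% were called higher and 0.986% lower. The set of 8 leaves out WT replicate 6 for its levels of the members. The interferons themselves were hardly seen: Ifna2, Ifna4, Ifnl2 and Ifnl3 were listed at 0 in all 12 libraries, Ifnb1 was listed at 0 in 11 and at 0.06 TPM in WT replicate 3, and Ifng was listed at 0 in all but WT replicates 1 and 3, at 0.03 TPM each. With TPM alone the depth behind these zeros is unknown.

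Of the receptors, Ifnar1 had 124, 108, 111, 122 and 117 TPM in KO replicates 1 to 5. It had 97.8, 100.2 and 93.8 TPM in WT replicates 1, 5 and 7, 111 TPM in WT replicate 6, and 55.5, 59.3 and 51.8 TPM in WT replicates 2, 3 and 4. KO replicates 2 and 3 were below WT replicate 6, and the other 3 were above every WT library. Ifnar1 rose by 0.25 ± 0.05 with 8 libraries (adjusted p = 0.0363, limma) and was not called with 9 (0.21 ± 0.06, adjusted p = 0.101). Ifnar2 was not called in any set (132 to 147 TPM in KO, 89.7 to 159 TPM in WT), and Ifngr1 rose by 0.27 ± 0.05 with 8 libraries (adjusted p = 0.0173).

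Samhd1, which depletes the nucleotides that viruses need, had 109, 103, 101, 106 and 102 TPM in KO replicates 1 to 5. It had 82.6, 75.8 and 77.7 TPM in WT replicates 1, 5 and 7, 111 TPM in WT replicate 6, and 81.7, 78.8 and 91.1 TPM in WT replicates 2, 3 and 4. Every KO library was above every WT library but replicate 6. Samhd1 rose by 0.40 ± 0.04 with 8 libraries (adjusted p = 0.0029, limma), and Adar, which edits double-stranded RNA, rose by 0.27 ± 0.06 (adjusted p = 0.0410). Irf1, a regulator of the GTPase genes, was not called in any set (0.34 ± 0.14 with 8 libraries, adjusted p = 0.217).

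Tlr7, the endosomal sensor of single-stranded RNA, went the other way. It had 31.0, 30.1, 28.95, 31.6 and 31.2 TPM in KO replicates 1 to 5. It had 42.4, 39.7 and 41.0 TPM in WT replicates 1, 5 and 7, 59.8 TPM in WT replicate 6, and 26.5, 33.2 and 12.2 TPM in WT replicates 2, 3 and 4. Every KO library was below WT replicates 1, 3, 5, 6 and 7 and above WT replicates 2 and 4. Tlr7 was called lower with 9 libraries (-0.55 ± 0.11, adjusted p = 0.0331, limma) and with 8 (-0.41 ± 0.04, adjusted p = 0.0033) but not with 12 (-0.12 ± 0.29, adjusted p = 0.795).

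**Figure D5:**
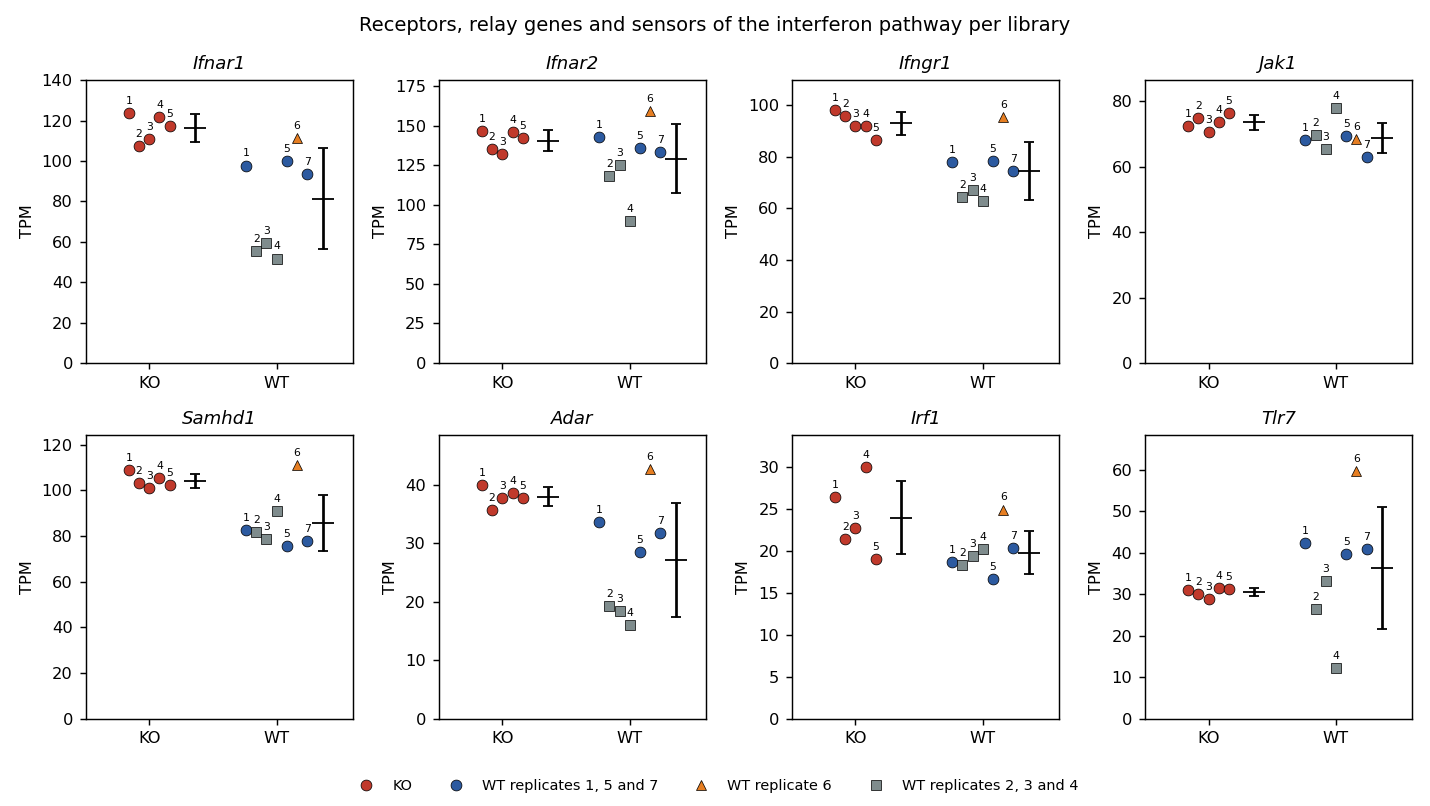
TPM per library of 8 receptor, relay and sensor genes of the interferon pathway, with KO left of WT, replicate numbers beside the points, and the mean and SD of each group beside it. The KO libraries of Samhd1, Adar and Ifngr1 lie above WT replicates 1, 5 and 7, and those of Tlr7 lie below them.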

How the data were processed

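RNA from 5 KO and 7 WT libraries was read in pairs of 51 bases on an Illumina instrument; this comes from the extract protocol. Build mm10, Salmon 1.2.0 and bcl2fastq are named in the submitters' processing notes; annotation and strand setting are not stated. The authors deposited a single table of TPM values for 23438 genes. The header names no unit, and the values, which sum to 940127 to 947987 in each library, were read as TPM. TPM keeps no read depth, so no counting interval was computed, and a rise of abundant transcripts lowers all others. Salmon divides reads between near-identical genes by a model, so such pairs are uncertain.

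Symbols and coordinates came from GENCODE M21 on GRCm38. Fits used limma 3.58.1 in R 4.3.3 (trend) on log2(TPM + 1), over 11152 genes that reached 1 TPM in 5 or more libraries, with genotype as the only term; a fold change on this scale understates low genes. Fits were tested on simulated data. WT replicates 2, 3 and 4 were set apart by fibroblast, smooth muscle and single macrophage markers. Members and lists were chosen with earlier results of these data known. Named are all members called in any set, lead members of each role, the largest and smallest fold changes, and pathway genes called or listed by name; others were named after their values were seen, and 1 gene of the pathway is not reported here. Alternatives were median-ratio scaling, no filter, a pseudocount of 0.1, each library left out, a submission number block, a replicate block, and KO replicates 1 and 4 left out, the last chosen after seeing the data. The submission number is the number that ends each library's sample name. Its block had 2 levels, numbers up to 5 and numbers above 5, a cut that the labels do not name as a batch.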

Additional observations from a re-analysis of the deposited data

Results flagged for a closer look

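In 106 checks (45 named members and 8 pathway genes, each in both genotypes), 28 found a library whose gap to its nearest neighbour was large for the range of its group, 27 of them in members and 1 in a pathway gene, Ifnb1. For genes chosen without regard to their values, chance flags about 1 in 20 groups. Many of these genes were named because they were called without WT replicate 6, and some after their values were seen. That rate is therefore not a measure for these flags. Members share libraries, so the checks are not independent.

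WT replicate 6 was the highest WT library in 23 of the 28. Its levels were 1155 TPM for Ly6e, 117 TPM for Isg15, 110 TPM for Rtp4, 96.7 TPM for Irf7, 75.1 TPM for Oasl2 and 65.1 TPM for Ifi204. They were 48.8 TPM for Xaf1, 36.8 TPM for Parp14, 35.5 TPM for Eif2ak2, 33.4 TPM for Ifit3, 30.2 TPM for Oas3, 25.6 TPM for Zbp1 and 25.5 TPM for Parp9. Lower genes flagged there were Samd9l at 19.8 TPM, Usp18 at 19.3 TPM, Ddx58 at 16.7 TPM, Ifi203 at 15.8 TPM, Herc6 at 10.1 TPM, Mx1 at 10.04 TPM, Oasl1 at 9.19 TPM, Ifit1 at 8.36 TPM, Cmpk2 at 6.17 TPM and Ifit3b at 5.10 TPM.

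KO replicate 5 was the highest KO library in 4 genes: Slfn5 at 65.9 TPM, Ifi204 at 63.8 TPM, Isg15 at 63.3 TPM and Ifit3 at 20.1 TPM. Ifnb1 was flagged in WT replicate 3, at 0.06 TPM against 0 in every other library.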

How the results depend on the processing

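With 12 libraries, 0 members were called; 31 were called with the 8 libraries, 0 to 3 with 1 library left out (3 without WT replicate 6: Oas3, Samd9l and Ifit3b) and 2 on the libraries of the replicate block fitted without a block. Genes called in all numbered 14 with 12 libraries; 3 without KO replicates 1 and 4, 4 with median-ratio scaling, 260 with 9 libraries, 462 with 8, 3 with a submission number block, and 2 to 36 with 1 library left out. With 9 libraries, 0 to 31 members were called with 1 left out (31 without WT replicate 6, 0 otherwise), and 260 genes in all became 132 with the submission number block and 51 to 462 with 1 left out. With 8 libraries, 31 members became 10 to 31 and 462 genes became 78 to 494 with 1 left out; 303 genes were called with no filter and 280 with the submission number block. The causes were not tested.

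Median-ratio scaling gave 21 members with 8 libraries, and moved the higher and lower calls over all genes to 2 and 2 (12 and 2 as deposited) with 12 libraries, 83 and 138 (180 and 80) with 9, and 184 and 147 (352 and 110) with 8. The list difference of KO minus WT became 0.55 for type I and -0.11 for GTPase members. WT replicates 2, 3 and 4 minus the other WT gave -0.75 for the type I and 0.65 for the GTPase list, and -0.47 and 0.77 without WT replicate 6.

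Same-numbered libraries did not pair: correlations of their deviations were 0.222, 0.204, 0.135, -0.224 and -0.181. The replicate block uses only libraries whose number occurs in both genotypes, which from the 9 libraries leaves KO and WT replicates 1 and 5. With this block 0 genes were called from the 12 libraries and 0 from the 9. Without the block term, the same reduced libraries gave 13 and 0. All 9 libraries without a block gave 260.

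Signs turned for genes that were not called with 12 or with 9 libraries. From 12 libraries, Bst2 turned to -0.24 with 9 and -0.0665 with 8, Gbp2 to 0.47 and 0.54, Gbp7 to 0.41 and 0.46 (0.0514 with a pseudocount of 0.1, and -0.119 to 0.113 with 1 left out), Irgm1 to 0.21 with 8, Isg20 to 0.17 and 0.31, Ifi47 to 0.11 and 0.28, and, without KO replicates 1 and 4, Ifitm3 to -0.135 (-0.0326 to 0.211 with 1 left out) and Ly6e to -0.398 (-0.0950 to 0.383). With 9 libraries, Bst2 turned to 0.0357 with the replicate block and on its libraries without the block, Irgm1 to 0.19 with both and 0.0101 with the submission number block (-0.0936 to 0.206 with 1 left out), without KO replicates 1 and 4 Ifitm3 to -0.000988, Ifi47 to -0.0503, Oasl1 to -0.00820 and Ly6e to -0.375 (-0.0717 to 0.640 with 1 left out), and with 1 left out Isg15 ranged from -0.0575 to 0.515 and Xaf1 from -0.0412 to 0.366.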
